A study of Homo sapiens with 3 samples.

Results

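The core genes of the Hedgehog pathway were followed in 3 human embryonic stem (ES) cell lines: the ligand genes SHH, IHH and DHH, the receptor gene PTCH1, the transducer gene SMO, the inhibitor gene SUFU and the transcription factor genes GLI1, GLI2 and GLI3. They were chosen by gene symbol in the platform's annotation. All 9 were found, with 1 probe each, among 47293 probes and 16225 named genes. The lines H9, BG03 and ES01 are undifferentiated, established human ES cell lines with no genetic change or treatment named in the labels, all cultured on irradiated mouse embryonic fibroblast feeders in medium with serum replacement and FGF2. Total RNA of each line was labelled with Cy3 and read on 1 Illumina bead array. The study was designed around human ES cells beside mouse ES cells and EpiSCs (stem cells of the epiblast). No mouse sample is analysed here: each gene is set against background and the 3 human lines against each other. Nothing shows how the spread between arrays of 1 line would look, since no line was arrayed a second time.

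Hedgehog ligands are secreted proteins that bind the receptor PTCH1 on the receiving cell. Unbound PTCH1 holds the membrane protein SMO inactive, and ligand binding lifts that hold, so that SMO acts at the primary cilium to release the GLI transcription factors from SUFU. GLI2 and GLI3 are cut into repressors in the absence of ligand and act as activators in its presence, while GLI1 is itself a target gene and an activator. PTCH1 and GLI1 are widely used as readouts of the pathway because their transcription rises when it is active, and the pathway is best known in the early embryo for patterning the neural tube, limbs and gut.

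Triplets of levels give the quantile-normalized intensity of H9, then BG03, then ES01; an SD is that of the 3 log2 values (n = 3). As background served 215 probes for olfactory receptor genes, the odour receptors of the nose: their 95th percentile was 11.2, 12.6 and 13.3 units on the arrays. A gene counted as above background in a line when it exceeded that value. Whether its level exceeded background by more than the spread over the lines was tested with limma, one-sided, on the log2(value + 16) scale, with Benjamini-Hochberg adjustment over all 16225 genes. The SE given with a level above background is limma's moderated SE, which also draws on the spread of other genes. No probe was checked for reading its transcript, so a level under background does not show that a gene is silent. Where levels of different probes stand side by side, they compare brightness on the array and not amounts of RNA.

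The arrays carried the pattern of ES cells. Of 12 ES cell markers, 11 were above background in all 3 lines, including POU5F1 (269.6, 287 and 195), NANOG (130.1, 123 and 127) and LIN28A (5466, 5837 and 6489), and SOX2 was above it in none. Of 22 fibroblast markers, 13 (59.1%) were above background in all lines, near the 59.8% of all genes that were, and the summed intensities of the list were 13060, 12740 and 14660. SPARC (6345, 7413 and 8199), VIM (2346, 1476 and 2104), COL6A2 (1410, 898 and 1148), THY1 (752, 851 and 824) and COL1A2 (310, 229 and 582) were among the 13, and COL3A1, COL6A3 and POSTN were above background in no line. SPARC was the largest single part of each sum, so the sums say little on the dimmer markers. Of the 19 fibroblast markers that passed background on any array, 3 differed at least 2-fold between BG03 and H9. Between ES01 and H9 3 did so, and between ES01 and BG03 5. The shares for genes at large were 3.24%, 5.14% and 3.75%. Fibroblasts can receive Hedgehog signals, and the feeders are mouse fibroblasts. The part of feeder RNA in the values below was not tested. Of 15 neuroectoderm and floor plate markers, 4 (26.7%) were above background in all lines, and of 11 endoderm and notochord markers, 8 (72.7%). In RNA from whole cultures, fewer cells of a type and less RNA per cell cannot be told apart.

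The receiving side of the pathway was above background and the ligands were not. PTCH1, SMO, SUFU, GLI1, GLI2 and GLI3 exceeded background in all 3 lines, and SHH, IHH and DHH exceeded it in none. Of all genes, 59.8% were above background in all lines, so 6 of 9 is near the share of genes at large. The limma test called the same 6 members and none of the ligands at an adjusted p under 0.05, against 58.3% of all genes.

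**Figure D1:**
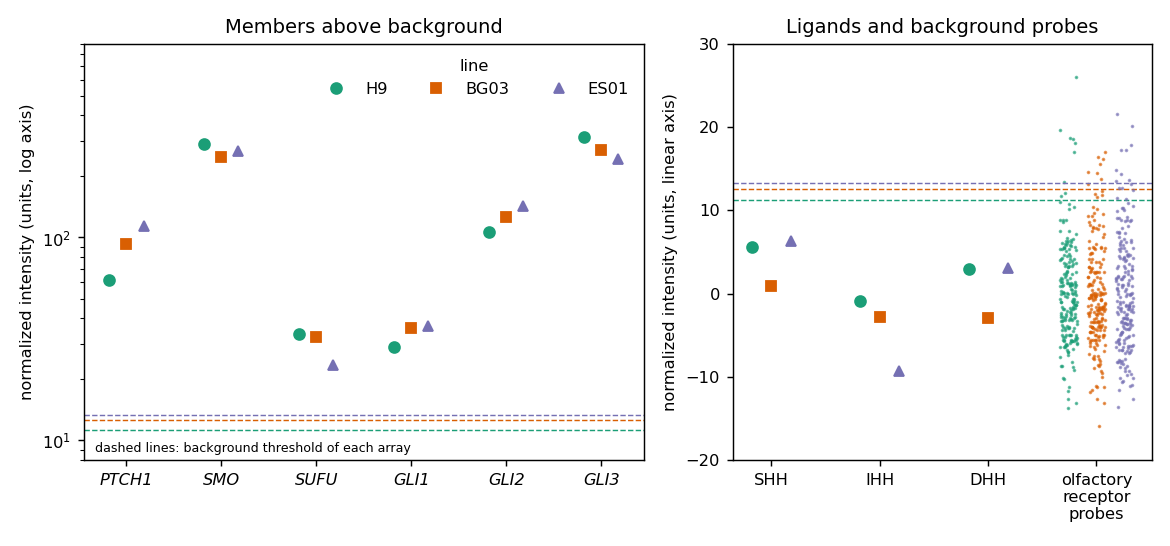
Normalized intensity of each member in H9, BG03 and ES01, with 1 point per array: on the left, on a log axis, the 6 members above background, and on the right, on a linear axis, the 3 ligand genes beside the 215 olfactory receptor probes (small points, of which 2, 3 and 2 lie above the top of the axis). Dashed lines mark the background threshold of each array. PTCH1 and GLI2 lie lowest in H9 and highest in ES01, and every ligand point lies under every threshold.

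SHH, the ligand of the notochord and floor plate, measured 5.63, 0.900 and 6.27 units. All 3 values lay under the threshold of their array, and 36, 79 and 41 of the 215 olfactory receptor probes were at least as bright. IHH, the ligand of gut and growing bone, measured -0.867, -2.80 and -9.30, with 114, 138 and 202 olfactory receptor probes at least as bright. DHH, the ligand of the gonad and peripheral nerve sheath, measured 2.93, -2.90 and 3.03, with 63, 139 and 70. No ligand probe therefore stood out above the background probes on any array, and IHH in ES01 lay toward their lower end. In limma's one-sided test the adjusted p was 1 for SHH, IHH and DHH. Values this close to background carry no order of the lines, and no fold between lines is given for them.

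PTCH1, which binds the ligands and restrains SMO, had intensities of 61.9, 92.9 and 113, at 5.53, 7.38 and 8.56 times the threshold of each array. H9 was lowest and ES01 highest, and all 3 lines were clear of background. Its level was 1.86 ± 0.16 (SE, n = 3) above background on the log2(value + 16) scale, with an adjusted p of 6.6e-06 in limma's one-sided test. A single olfactory receptor probe was brighter than PTCH1 in H9 and in BG03 and none in ES01.

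Among the members with a promoter window, PTCH1 is the one with a match to the 9-letter sequence that GLI factors are known to bind, and that window is printed for this reason. RefSeq start-site windows of 300 bases (250 before to 50 after the start, GRCh38.p14) were found for 7 of the 9 members, 12 windows in all, 5 of them for PTCH1. GLI1 and GLI3 had none and were not searched. The 9-letter motif GACCACCCA, searched on both strands (TGGGTGGTC on the other), was found in 1 of those 12 windows, the PTCH1 window at chr9:95509217-95509516 on the minus strand. The match is at chr9:95509430-95509438, its first base 172 bases before that start site, and is shown in capitals, 5′ to 3′ along the gene.
PTCH1 promoter: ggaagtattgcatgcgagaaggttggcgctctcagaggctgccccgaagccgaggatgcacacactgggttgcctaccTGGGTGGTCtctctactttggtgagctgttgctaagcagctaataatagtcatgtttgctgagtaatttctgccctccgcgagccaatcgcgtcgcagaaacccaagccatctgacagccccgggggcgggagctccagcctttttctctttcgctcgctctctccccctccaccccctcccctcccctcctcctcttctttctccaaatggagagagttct
Of all 35116 windows, 83 (0.236%) held this motif. Its 7-letter core CCACCCA, or TGGGTGG on the other strand, which lies inside the longer motif, stood in 9.19% of all windows and in 2 of the 12 member windows, this one and a GLI2 window. A match of letters is a description of the sequence and does not show that a factor binds there. Which of its start sites the PTCH1 signal came from was not measured, since 1 probe reads the gene.

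SMO, the membrane protein that passes the signal inward, measured 290, 251 and 268 (log2 SD 0.10). The 3 lines lay close together, at 25.8, 19.9 and 20.2 times background. No olfactory receptor probe was as bright as SMO on any array. Its level was 3.33 ± 0.10 (SE, n = 3) above background on the log2(value + 16) scale, with an adjusted p of 6.7e-09 in limma's test.

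SUFU, which binds GLI proteins and keeps them out of the nucleus, was dim, at 33.6, 32.2 and 23.4 (log2 SD 0.29). ES01 had the lowest value, 1.77 times its threshold, against 3.00 in H9 and 2.56 in BG03. The level was 0.68 ± 0.15 (SE, n = 3) above background, with an adjusted p of 0.00238 in limma's one-sided test. With the 99th percentile of the olfactory receptor probes as background, SUFU was still above it on every array, but the adjusted p became 0.460; over the other alternatives it was between 2.0e-04 and 0.0149.

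GLI1, the activator that is itself a target of the pathway, was also dim, at 28.9, 35.7 and 36.5 (log2 SD 0.19). These values were 2.58, 2.83 and 2.75 times background, a near-constant margin over the 3 arrays. The level was 0.81 ± 0.14 (SE, n = 3) above background, with an adjusted p of 5.7e-04 in limma's one-sided test. The 99th percentile background ended this call as well (adjusted p = 0.178, against 2.6e-04 to 0.00254 over the other alternatives).

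GLI2, the main activator of the family, measured 107, 126 and 144 (log2 SD 0.22), at 9.51, 9.99 and 10.8 times background. H9 was lowest and ES01 highest, as for PTCH1. GLI3, which is mostly known as a repressor, measured 314, 270 and 244 (log2 SD 0.19), at 28.05, 21.4 and 18.4 times background. Its lines stood in the opposite order, with H9 highest and ES01 lowest. GLI2 was 2.31 ± 0.12 (SE, n = 3) and GLI3 3.36 ± 0.11 above background, with adjusted p-values of 2.6e-07 and 1.4e-08 in limma's one-sided test.

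Between the lines, PTCH1 differed most among the 6 members above background after quantile normalization, and no member differed 2-fold. There is no test between lines, since each is 1 array. Counts of members differing at least 2-fold were 0 for each of the 3 pairs, against 3.24% of genes above background in at least 1 line for BG03 and H9, 5.14% for ES01 and H9, and 3.75% for ES01 and BG03. With 6 members, shares this small leave a count of 0 near the background. ES01 exceeded H9 in PTCH1 by 0.87 on the log2 scale (1.83-fold), a difference that 6.17% of the genes above background in all lines reached or passed. BG03 exceeded H9 in PTCH1 by 0.58 (1.5-fold; 10.6% of genes reached it), and ES01 exceeded BG03 by 0.29 (1.22-fold; 37.2%), which turned to -0.06 when array medians were set equal.

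The beads give the size of technical error within an array. Each array held 2089034 to 2102778 beads, a median of 42 per bead type. Bead codes are not tied to genes in the tables used here, so the standard error of a member was estimated from 201 bead types at the same brightness rank on that array. For PTCH1 it was 0.11, 0.09 and 0.08 on the log2 scale. The difference between ES01 and H9 was 6.61 times its estimated bead error (0.13), that between BG03 and H9 was 4.18 times (0.14), and that between ES01 and BG03 was 2.38 times (0.12). This sets the quantile-normalized arrays apart in PTCH1 beyond bead error. Bead error covers neither the scaling of the arrays nor the spread between cultures of 1 line.

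Of the GLI genes, GLI2 and GLI3 differed beyond bead error after quantile normalization and GLI1 hardly did. ES01 was above H9 in GLI2 by 0.43 (1.35-fold, 4.10 times the bead error), and below H9 in GLI3 by 0.37 (log2 difference -0.37, 4.97 times). GLI1 was 0.34 higher in ES01 and 0.30 higher in BG03 than in H9, 1.52 and 1.36 times its bead error, which is larger because the gene is dim. Between ES01 and BG03, GLI1 differed by 0.03. Differences of this size were common: 25%, 31.3% and 34.7% of genes lay at least as far apart between ES01 and H9 as GLI2, GLI3 and GLI1.

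SUFU was lowest in ES01, and SMO was nearly level after quantile normalization. SUFU was lower in ES01 than in H9 (log2 difference -0.52) and than in BG03 (-0.46), 2.10 and 1.80 times the bead error. SMO was within 0.21 in every pair, and its largest difference, between BG03 and H9 (-0.21), was 2.77 times the bead error.

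**Figure D2:**
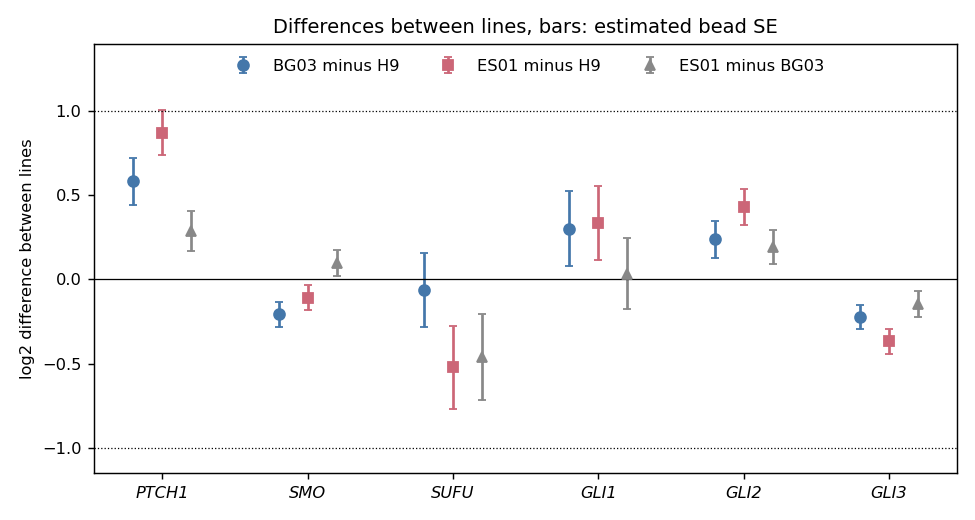
Log2 difference between each pair of lines for the 6 members above background, with bars of 1 estimated bead standard error on each side; dotted lines mark a 2-fold difference. PTCH1 reaches 0.87 between ES01 and H9, SUFU and GLI3 lie under 0 in each pair, and no point passes a dotted line.

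The scaling of the arrays bears on these differences. After quantile normalization the median log2 difference over genes above background in all lines was 0.02 (BG03 minus H9), 0.00 (ES01 minus H9) and -0.02 (ES01 minus BG03). Scaling the arrays to the same median moved these to 0.07, -0.29 and -0.36, a shift of ES01 as a whole, with a factor that rests on dim probes. Under it the difference of ES01 from H9 was 0.54 for PTCH1, 0.10 for GLI2, 0.02 for GLI1, -0.38 for SMO, -0.66 for GLI3 and -0.84 for SUFU. Scaling by 1 factor per array moves the median gene and the members alike, so differences relative to the median gene cannot test it. No member's difference of ES01 from H9 changed sign, though those of GLI1 and GLI2 came to only 0.02 and 0.10. Both lay under the estimated bead error of the difference, 0.22 for GLI1 and 0.105 for GLI2. PTCH1 was then no longer the member that differed most. Its largest difference was 0.595, between BG03 and H9, and SUFU differed more.

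The spread over the lines comes from the same quantile-normalized values as the differences and is no second observation. By it too PTCH1 was the widest of these 6 members. Its log2 SD was 0.45, against a median of 0.23 for the 400 genes nearest to it in mean level. Of these, 85.5% had a smaller SD. PTCH1 is singled out here as the widest of 6, which by itself favours a high share. GLI2 (0.22) and GLI3 (0.19) lay near the middle of their like genes, with 55.2% and 55.5% below them, and SUFU (0.29, 43.5%), SMO (0.10, 25.8%) and GLI1 (0.19, 25%) lay under it. After quantile normalization, the order H9, BG03, ES01 from low to high was seen for PTCH1, GLI1 and GLI2. It was shared by 20% of all genes above background, as each of the 6 possible orders was by 12.3% or more. With array medians set equal, ES01 fell below BG03 in PTCH1 (-0.06), GLI1 (-0.28) and GLI2 (-0.16), so their order depends on the scaling. For GLI1 the step from BG03 to ES01 was 0.16 times its bead error after quantile normalization. The order H9, BG03, ES01 was also seen for 5 of the 8 endoderm and notochord markers above background in all lines. These were GATA4, GATA6, AFP, CXCR4 and CER1, while SOX17 (99.2, 92.4 and 105), FOXA2 (222, 185 and 195) and TTR (81.5, 12.8 and 21.0) had other orders. For ES cells the count was 5 of 11, for fibroblasts 3 of 13 and for neuroectoderm and floor plate 1 of 4. The part of cells of these kinds in the order of PTCH1, GLI1 and GLI2 was not tested.

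**Figure D3:**
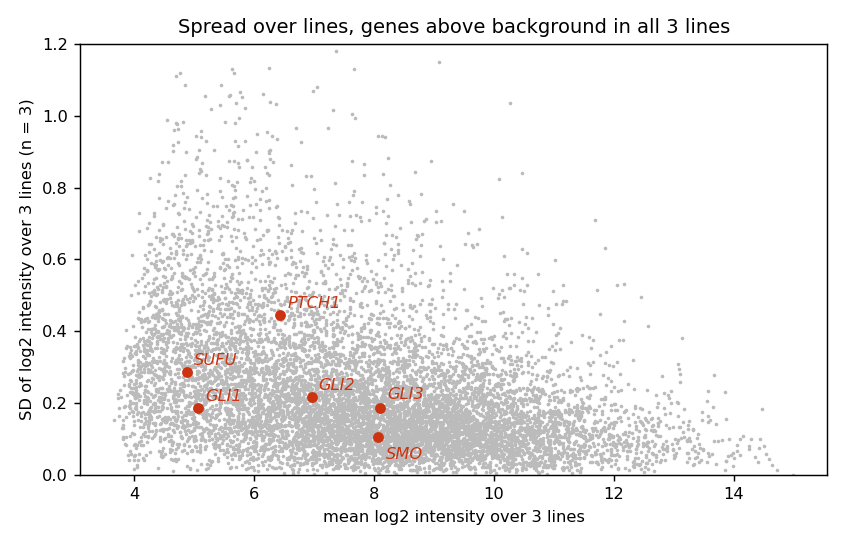
Standard deviation of log2 intensity over the 3 lines against mean log2 intensity, for the genes above background in all 3 lines (grey, 41 genes lie above the top of the axis) and the 6 members (red). PTCH1, at 0.45, lies over most genes of its level, and SMO, at 0.10, among the less variable ones.

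The genes whose pattern over the 3 lines was nearest to that of PTCH1, by Euclidean distance of log2 values centred on each gene's mean, were INPP1, an inositol phosphatase gene (16.8, 25.3 and 30.8), RMND5A (12.0, 18.4 and 22.2) and ZYX, the gene of the adhesion protein zyxin (674, 984 and 1207). Their distances were 0.01, 0.02 and 0.03. Each distance rests on only 3 points a gene, and 43 of the 9694 genes compared lay within 0.1 of PTCH1.

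The rest of the pathway was mostly above background, least so at the ligand end. Of 93 other genes listed by role, 83 were measured. In all 3 lines 63 of these (75.9%) passed background and 15 did so in none, against 59.8% of all genes; limma called 62. The genes that shape and release the ligands were the exception, with 1 of 6 above background in all lines. That gene was DISP1, which exports lipid-bearing ligand from the producing cell (31.4, 16.8 and 20.8). DISP2 was above background in BG03 alone (9.37, 43.2 and 12.2), at least 3.86-fold over H9 when H9 is set to its threshold, and over 2-fold above ES01. HHAT, the acyltransferase of the ligands, and SCUBE1, SCUBE2 and SCUBE3, which help to shed them, were above background in no line.

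Among 10 measured co-receptors and ligand-binding proteins, 6 (60%) were above background in all lines, as were 59.8% of all genes. The glypican GPC4, a heparan sulfate proteoglycan, measured 2182, 3421 and 1776, and GPC3, a glypican that binds Hedgehog ligand and restrains the pathway, 111, 149 and 75.9. BOC, a co-receptor that promotes signalling, was dim and 2.12-fold lower in ES01 than in H9 (28.8, 20.7 and 13.6), the only gene of the group to differ 2-fold, and was not called by limma (adjusted p = 0.0522). Of the other co-receptors of this kind, CDON was above background in no line (6.37, 1.13 and 3.37) and GAS1 in H9 and BG03 (17.5, 15.9 and 8.33). LRP2 passed the threshold in ES01 alone (14.8 against 13.3). HHIP, a decoy receptor and a target of the pathway, was above background in no line (2.67, 0.700 and -4.73). EXT1 (334, 301 and 491), EXT2 and GPC6 were above background in all lines.

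Of 9 measured genes that regulate or relay SMO, 6 (66.7%) were above background in all lines, which is also near the 59.8% of all genes. GPR161, a ciliary receptor that restrains the pathway, measured 50.8, 42.5 and 45.1, and the sterol enzymes DHCR7 (529, 509 and 493) and SC5D (980, 980 and 1173) varied little. EVC, a ciliary partner of SMO, measured 24.8, 22.6 and 17.2, its relative EVC2 was above background in H9 and BG03, and GRK2 and ARRB1 were above it in no line. MGRN1, a ubiquitin ligase gene, measured 145, 139 and 190.

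Of 25 genes that process or restrain GLI proteins, 22 (88%) were above background in all lines and none differed 2-fold. The protein kinase A genes PRKACA (16.7, 21.1 and 20.0), PRKACB (362, 375 and 432) and PRKAR1A (641, 716 and 699), whose kinase marks GLI proteins for cutting, were above it in all lines. The widest differences among the 22 were in the casein kinase genes CSNK1E (1917, 1804 and 1191) and CSNK1A1 (1398, 923 and 1443), the ubiquitin ligase adaptor genes SPOP (629, 588 and 431) and SPOPL (58.7, 47.0 and 37.1), IPO5 (623, 455 and 644) and RAB23 (220, 186 and 160), a small GTPase that restrains the pathway. GSK3A and TULP3 were above background in no line and CUL3 in H9 alone.

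Genes of the primary cilium, the compartment in which SMO and GLI proteins meet, were above background in all lines for 28 of 33 (84.85%). The share of all genes was 59.8%. The other 5 were above background in no line. The transport genes IFT20 (201, 202 and 199), IFT27 (732, 720 and 603) and IFT52 (628, 560 and 674) varied little. IFT74 (241, 154 and 191), OFD1 (115, 116 and 179), BBS7 (96.3, 65.2 and 88.9), IFT57 (58.2, 69.7 and 48.2) and DYNC2H1 (51.2, 65.6 and 72.7) ranged more widely. BBS9, of the BBSome coat that moves proteins in and out of the cilium, measured 66.0, 109 and 284, a 4.30-fold difference between ES01 and H9. A second BBS9 probe was under background in all lines (-2.80, -6.70 and -4.47), so the difference rests on 1 probe.

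**Figure D4:**
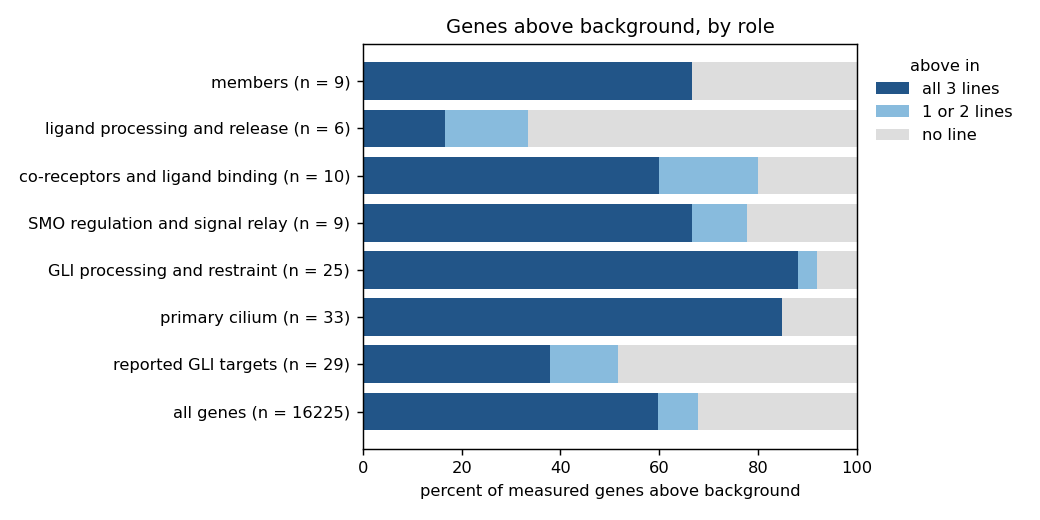
Stacked bars give the percent of measured genes that passed background on 3, on 1 or 2 or on 0 arrays, for the 9 members, the 5 groups of other pathway genes, the reported GLI targets and all 16225 genes (number measured in brackets). Genes of GLI processing (22 of 25) and of the cilium (28 of 33) are mostly above background in all lines, and ligand processing (1 of 6) and GLI targets (11 of 29) mostly not.

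Of 29 measured reported targets of GLI factors, 11 (37.9%) passed background on all 3 arrays, where 59.8% of all genes did, 4 on 1 or 2 arrays and 14 on none; limma called 10. Among the 11 were the growth genes MYCN (1307, 1428 and 1357), CCND1 (935, 913 and 1319), CCND2 (2057, 1137 and 1705) and FOXM1 (1359, 1614 and 1472), which many other pathways also drive. The polycomb gene BMI1 (69.2, 66.9 and 111), the phosphatase gene CDC25B (144, 145 and 108), JAG2 (36.9, 24.3 and 23.5) and PRDM1 (101, 77.9 and 146) were above it too.

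The 14 targets above background in no line were HHIP, FOXF1, FOXF2 and FOXL1 of gut mesenchyme, FOXC2, the ventral neural genes NKX2-1, NKX2-2 and NKX6-2, PAX9, SNAI2, BMP4, and the growth genes CCNE1, IGF2 and VEGFA. FOXA2, a floor plate and endoderm factor, was above background in all lines (222, 185 and 195), and so was NKX6-1, but only just (22.4, 18.5 and 14.3; limma adjusted p = 0.0752). OLIG2 of motor neuron precursors was above background in H9 and BG03 (38.8 and 52.8) and not in ES01 (-5.43), at least 3.98-fold lower in ES01 than in BG03. HAND2 passed the threshold in BG03, GREM1 in ES01 and BCL2 in BG03 and ES01.

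SFRP1, a secreted WNT antagonist, was the other target to differ 2-fold, at 3231, 2315 and 1554, 2.08-fold lower in ES01 than in H9. PTCH1 lay the other way round over the same arrays, with 61.9 in H9 and 113 in ES01. Over the 15 targets above background in at least 1 line, 8 stood higher in ES01 than in H9, as did 5700 of all 11004 such genes. The median log2 difference was 0.05 for the targets and 0.02 for all such genes.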

How the data were processed

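Total RNA from 3 human ES cell lines was read on Illumina arrays, per the labels. The deposited value table holds background-subtracted intensities on a linear scale for 47293 probes, with 26.3% to 33.8% of the values below 0. How the authors made and scaled them is not given in these sources. The deposited bead files hold 1 green intensity per bead. A gene symbol was paired with 18468 probes (none with several) and not with the other 28825; symbols were updated through gene ID (18451 matched, GRCh38.p14).

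Quantile normalization (limma 3.58.1, R 4.3.3) covered the probes other than 4 bacterial controls, and the brightest probe stood for a gene (1614 genes have several). Each level was tested against the array's background threshold with lmFit and eBayes (trend), one-sided, with a pseudocount of 16 and negative values set to 0. On simulated data for this comparison (16225 genes), 99% of genes at 0.5 above background on the log2(value + 16) scale were called. The share was 100% at 1 and 1.5% at -0.1. Each simulated gene had the median spread of genes near its level, so these shares do not hold for genes that vary more. In the data OLIG2, at 0.469 above background, had an adjusted p of 0.208 in limma's one-sided test. Differences used values set to the threshold where lower, for genes above background in at least 1 line; a 2-fold difference was counted. Outlying beads (beyond 3 median absolute deviations, 0.534% to 0.583%) were left out of bead error, which was computed in Python 3.11.15 (numpy 2.4.6, pandas 2.3.3, figures in matplotlib 3.10.9).

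The lines are taken as 3 replicates of 1 group. The p-values measure the spread between these samples, as moderated by limma. The members, lists, tests and alternatives were chosen with earlier results of these data known. Named genes are the members, the first 3 measured genes of each list, genes of the receptor, ligand release and target lists not above background or 2-fold apart, and the widest-ranging 6 of the others. Other listed genes given by name were chosen after their values were seen.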

Additional observations from a re-analysis of the deposited data

How the results depend on the processing

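The counts kept to within 1.5 times under every alternative run: as deposited, scaled to the same 75th percentile or median, the 99th percentile background, a second background set of 107 probes, the mean over probes, pseudocounts of 1 and 50, a floor of 50 units, no filter on dim genes, and leaving out each line. The members above background in all lines stayed at 6, the same genes each time, and those differing 2-fold at 0. The limma count stayed at 6 except with the 99th percentile background, where GLI1 and SUFU were lost and 4 remained. Pathway genes ranged from 56 to 65 and GLI targets from 9 to 12, both lowest with that background; leaving out each line gave 63 to 65 pathway genes and 11 to 12 targets. Of the 18 differences between lines of the members above background, 10 moved by more than the SD over lines once array medians were set equal, where ES01 minus BG03 turned for 4 members (PTCH1 -0.06, SMO -0.24, GLI1 -0.28 and GLI2 -0.16). The floor of 50 units moved 4, by setting GLI1 and SUFU to the floor. No paired analysis was possible because the lines form 1 group. The number of arrays, 1 per line, limits every difference between lines, and the dim signal limits GLI1, SUFU and the ligands.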
